A study of Danio rerio with 3 samples.

Results

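Domains of the repressive histone mark H3K27me3 that contained no reproducible H3K27ac were examined in the posterior trunk of wild-type zebrafish embryos at 16 hours post fertilisation. Both marks were mapped by CUT&RUN, in which a nuclease tethered to an antibody cuts out the DNA around a modified histone. H3K27me3 was measured in 1 library (replicate 1), with the Merck Millipore antibody 07-449, and H3K27ac in 2 libraries (replicates 1 and 2), with the Abcam antibody ab4729. The labels name no separate embryo clutches for the H3K27ac replicates, so differences between the pair may be technical only, and values of H3K27me3 have no replicate. The tissue holds many cell types, so each list is a sum over cells.

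The domains were chosen by the called regions themselves. H3K27me3 regions separated by at most 3 kb were joined, and a domain of 3 or more regions was kept if no base pair between its ends was covered by H3K27ac regions of both replicates. This gave 600 domains with 2256 regions, out of 786 domains of 3 or more regions, 12932 joined domains of any size and 17121 H3K27me3 regions in all. The other 186 domains of 3 or more regions held H3K27ac. The 600 domains made up 4.64% of all joined domains and carried 14.4% of all base pairs under H3K27me3 regions, of which there were 9.05 Mb. The absence of shared H3K27ac and the number of regions are therefore the definition of these domains and no result. Positions are on danRer11. Neither its sequence nor its gene models were used here, and domains are therefore named by position, without genes or sequences.

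H3K27me3 is placed by Polycomb repressive complex 2 and is bound by Polycomb repressive complex 1, which compacts chromatin. H3K27ac is placed on the same lysine by the acetyltransferases p300 and CBP, so a single histone tail cannot carry both. In vertebrate embryos long stretches of H3K27me3 are known to cover genes for developmental transcription factors in the cells that do not use them, while H3K27ac marks active enhancers and promoters.

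Depth differed between the libraries. Read totals are not given in the lists, but each peak's fold and p-value can be solved for the caller's genome-wide background, which scales with depth if all lists were called with 1 genome size. On that reading H3K27ac replicate 2 was the deepest, H3K27ac replicate 1 reached 73.2% of it, and H3K27me3 reached 33.6%. The lists held 45534 and 60427 regions of H3K27ac in replicates 1 and 2, which shared 27647 intervals. The same solution yields the number of tags within 10 kb centred on a summit. This number, relative to the genome-wide background, is called the tag density, and its lowest value is 1. At this depth a domain without called H3K27ac is one in which none was detected.

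Domains of H3K27me3 were free of shared H3K27ac less often than spans of the same lengths placed elsewhere. Of the 786 domains of 3 or more regions, 600 were free, or 76.3% (exact 95% interval 73.2 to 79.3%). For comparison, 84.7% of all 12932 joined domains were free, most of which were single regions with a median length of 365 bp. When the 786 spans were moved along their chromosomes by 1000 circular shifts, a median of 716 were free, with 699 to 731 over the central 95% of shifts and 691 as the lowest count. The observed count was thus 0.838 of the shifted one. Shifts of only 50 to 500 kb, which keep each span in its neighbourhood, gave a median of 704 (687 to 721). The shortfall was not particular to domains of 3 or more regions. Single regions were free in 85.8%, against 98.1% after shifts along the whole chromosome. Domains of 2 regions were free in 82.2%, against 95.8%.

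Each H3K27ac library showed this on its own. Against the regions of replicate 1 alone, 506 of the 786 domains were free, where shifts gave 668 (648 to 688). Against those of replicate 2 alone, 432 were free, where shifts gave 630 (607 to 651). The difference shrank when H3K27ac was limited to peaks reaching a -log10 q of 5: 732 domains were then free and the ratio to shifts was 0.973, just under the central range of 0.985 to 1.01. A sparser H3K27ac set leaves more shifted spans free, which by itself moves this ratio toward 1. How much of the change came from that was not tested. Circular shifts place spans without regard to mappable or gene-rich sequence, and the part of such features in the difference was not tested.

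By number of regions, the class with 6 or more came closest to the shifted share. Of the 474 domains with 3 regions, 364 were free (76.8%), against 93.2% after shifts. Of the 158 with 4 regions, 119 were free (75.3%), against 89.9%. Of the 69 with 5 regions, 51 were free (73.9%), against 88.4%. Of the 85 with 6 or more regions, 66 were free (77.6%), against 83.5%, and this last share lay within the central range of shifts, 75.3 to 90.6%. The observed shares lay close together, with overlapping exact intervals, while the shifted share fell as the median span grew from 3145 bp with 3 regions to 9601 bp with 6 or more.

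The share of free domains also differed with the density of H3K27me3. The 786 domains were split into 5 classes of tag density. Their median span rose from 1.86 kb in the sparsest class to 6.85 kb in the densest, so the classes differ in span as well as density. Shifted spans kept the lengths of each class. In the sparsest class (2.22 to 15.3), 118 of 158 were free of shared H3K27ac, or 74.7% (exact 95% interval 67.2 to 81.3%), against 95.6% after shifts. In the next higher classes, 2 and 3, 68.8% were free, against 92.4 and 90.4% after shifts. In class 4 it was 84.1% against 90.4%, with a central range of 86.0 to 94.9%. In the densest class, 5 (171 to 413), 134 of 157 were free, or 85.4% (exact 95% interval 78.8 to 90.5%), against 86.6% after shifts (81.5 to 91.7%). The densest domains thus came within the range of shifted spans for shared H3K27ac, but not for either replicate alone: 66.9% of them were free of replicate 1, against 78.3% (71.3 to 84.1%), and 58.6% of replicate 2, against 71.3% (64.3 to 77.7%). In both replicates the shortfall was larger in the sparsest class than in the densest, with 66.5% free against 92.4% in replicate 1 and 55.7% against 89.2% in replicate 2. When domains were ranked by -log10 q instead, the ratio to shifts for shared H3K27ac was 0.772 in the lowest and 0.943 in the highest class. Ranked by span, the ratio ranged from 0.783 in the shortest class to 0.878 in class 2 and was 0.864 in the longest. Ranked by base pairs under regions, it was 0.773, 0.767, 0.826, 0.872 and 0.963 from the lowest class to the highest, a rise like that with density. These are ratios for shared H3K27ac. In the highest class by base pairs the ratio was 0.876 for replicate 1 alone and 0.755 for replicate 2 alone. In the highest class by -log10 q it was 0.829 and 0.758, and the lower classes did not rise steadily in either replicate.

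**Figure D1:**
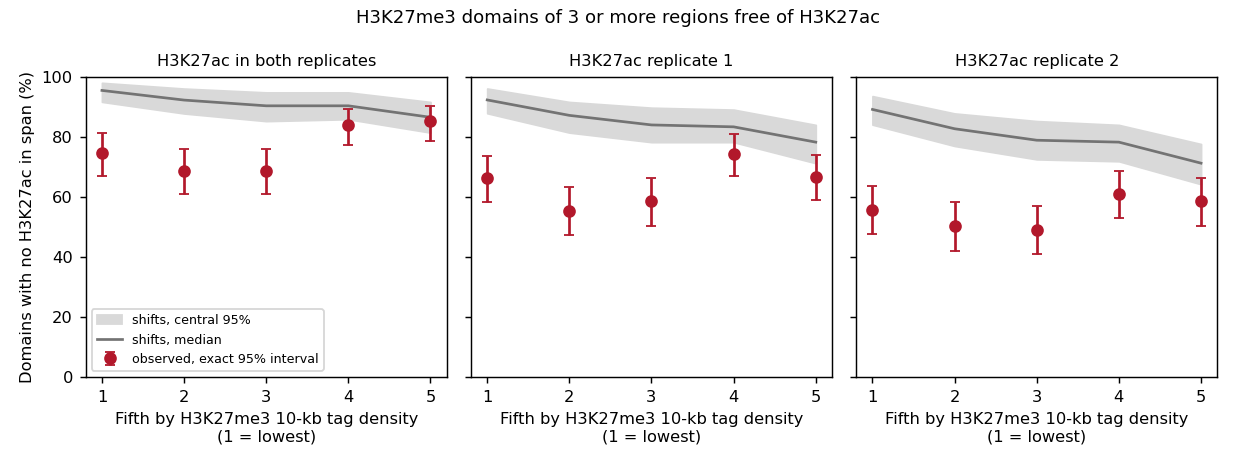
Percent of H3K27me3 domains of 3 or more regions with no H3K27ac in their span (vertical axis) by class (1 sparsest to 5 densest) of H3K27me3 10-kb tag density (horizontal axis), for H3K27ac in both replicates and for each replicate alone. Points with exact 95% intervals are observed, the grey line and band are the median and central 95% of 1000 circular shifts; the observed points lie under the band in classes 1 to 4 of every panel and reach it in class 5 only for shared H3K27ac, with 85.4% against 86.6%.

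The 600 domains varied widely in H3K27me3. A domain spanned a median of 4109 bp (quartiles 2604 and 5784, range 878 to 18973 bp), of which a median of 51.2% lay under called regions. Most were small, with 364 of 3 regions and 119 of 4, while 117 held 5 or more and 1 held 11. The highest tag density in a domain had a median of 71.5 (quartiles 21.5 and 155, range 2.27 to 315). It was over 100 in 239 domains, over 200 in 83 and under 10 in 80. Within a domain the windows of neighbouring regions overlap, and the highest density was a median of 1.12 times the lowest, and at most 6.24 times. Gaps between regions inside a domain had a median of 644 bp.

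Beside them, the 186 domains with H3K27ac had a median density of 44.6 and a median of 1818 bp under regions, against 71.5 and 2125 bp in the 600 free domains. The exact 95% intervals of the medians did not overlap for density (37.1 to 55.5 against 61.5 to 83.2) and did for base pairs (1641 to 2043 against 1944 to 2246). These intervals cover counting over domains of 1 library only. The span ran the other way, with a median of 4631 bp against 4109 bp. Domains of 2 regions had a median density of 9.62 and single regions 3.19. Across the 600 domains, which share 1 library, a higher tag density went with more base pairs (Spearman rho 0.76) and a longer span (rho 0.72). It also went with a lower deposited fold (rho -0.75), and each peak's fold is measured against its own window.

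**Figure D2:**
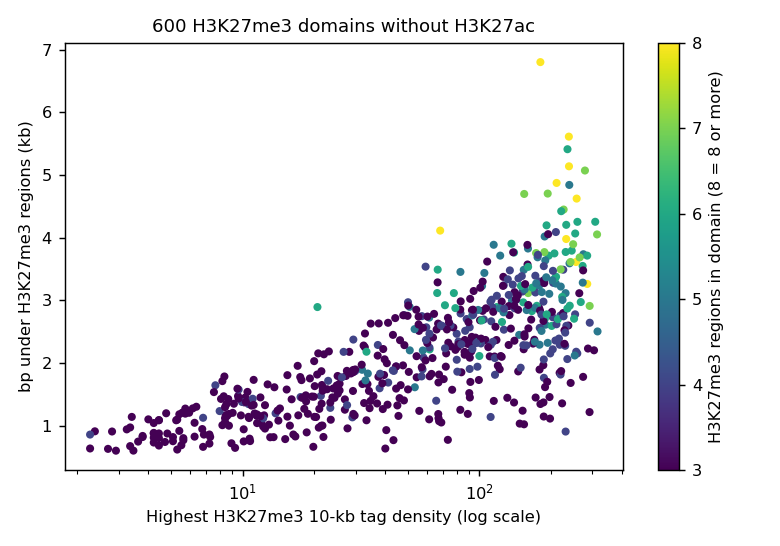
Each of the 600 domains by its highest H3K27me3 10-kb tag density (horizontal log axis) and the kb under its H3K27me3 regions (vertical axis), coloured by its number of regions. Domains under a density of 10 mostly hold 3 regions, and the domain with most base pairs, 6801 bp, stands above the others at a density of 181.

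Most base pairs under regions, 6801 bp, were found in a domain of 8 regions on chromosome 21 (7452017 to 7470989). Its density was lowest at the left end, 29.0 (536 tags in the window), and highest in the region from 7466816 to 7468773, 180.8 (3346 tags). It held 343 bp called in H3K27ac replicate 1 and 342 bp called in replicate 2, at different places, so no base pair was shared. The nearest shared H3K27ac lay 58494 bp away, and was weak, with densities of 1.61 and 1.78 in replicates 1 and 2. The domain on chromosome 17 from 21779970 to 21796288 had 5612 bp in 10 regions. Its density rose from 187 at the left end to 238 in the third region and fell to 138 at the right end. Its nearest shared H3K27ac was 2677 bp away, with densities of 1.29 and 1.42. Thus both large domains held H3K27ac calls of each replicate, none of which met the other replicate's.

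Other large domains differed in how clear they were of single calls. On chromosome 2 the domain from 708978 to 722333 (5411 bp, density up to 235) held no call of either replicate, and the nearest lay 1701 and 1668 bp away in replicates 1 and 2. On chromosome 11 the domain from 3857901 to 3872864 (5138 bp, density up to 239) held 219 bp of replicate 1 and none of replicate 2. The chromosome 3 domain from 43350220 to 43360246 (5071 bp, density up to 279) held 206 bp of replicate 2 and none of replicate 1. The domain with most regions, 11, lay on chromosome 2 from 29967332 to 29981658 (4873 bp) and held 308 bp of replicate 2. The domains on chromosomes 11 and 3 and this one thus had a call in 1 replicate alone. On chromosome 1 the domain from 9286463 to 9298547 (4841 bp) was clear in both replicates, while that from 7676720 to 7689862 (4623 bp, density up to 257) held 200 bp of replicate 2. A domain on chromosome 9 from 3384374 to 3397001 (4703 bp) held calls of both replicates apart from each other, 322 and 559 bp. On chromosome 20 the domain from 48687609 to 48701743 (4697 bp) was clear, with the nearest calls 27243 and 24617 bp away in replicates 1 and 2. By number of regions the third was a domain of 9 on chromosome 25 from 32741188 to 32754509 (3978 bp, density up to 232), which held 227 and 498 bp of replicates 1 and 2 apart from each other and had shared H3K27ac at 889 bp. Of the 10 domains with most base pairs, 3 were clear of any H3K27ac call, and the chromosome 20 domain was the farthest of these from one. Among all 600 domains, 369 (61.5%) were clear. The 10 domains spanned 10027 to 18973 bp, against a median of 4109 bp over the 600, and no comparison at equal span was made.

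The densest of the free domains lay on chromosome 15 from 27357065 to 27364446. Its 5 regions had densities of 176, 224, 301, 315 and 309 from left to right, and the highest stood on 5832 tags in the window with a summit pileup of 266. The nearest shared H3K27ac was 96873 bp away, and the nearest calls of replicates 1 and 2 were 3385 and 22574 bp away. A pair of domains on chromosome 7 followed, from 35509038 to 35517322 with a density of up to 314 and from 40883750 to 40892691 with up to 308. Their nearest shared H3K27ac lay 35860 and 39998 bp away. A domain on chromosome 16 from 29210505 to 29213996 reached 305 with only 3 regions, at 15738 bp from shared H3K27ac. The next, on chromosome 19 from 19717240 to 19721354, reached 292 and had shared H3K27ac at 2121 bp. All 5 of these densest free domains were clear of H3K27ac calls of either replicate, as were 369 (61.5%) of all 600. Domains holding shared H3K27ac reached a higher density, up to 413. At the other end, a domain on chromosome 15 from 43592777 to 43594134 was free at a density of 2.27, from 42 tags in the window, and it too held no call.

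Calls in a single replicate lay inside part of the domains. Of the 600, 369 (61.5%) held no H3K27ac of either replicate, 63 held replicate 1 only, 137 replicate 2 only, and 31 held both without a shared base pair. These 369 were 46.9% of the 786 domains of 3 or more regions, where shifts left 75.2% free of either replicate (72.1 to 78.1%). For shared H3K27ac the same shares were 76.3% and 91.1%. The share of shifted spans holding single calls only was not counted. Replicate 2, the deeper library, was called in 28.0% of the 600 domains and replicate 1 in 15.7%. Since the domains were chosen for lacking shared H3K27ac, almost all of these calls have no partner in the other replicate. Their median -log10 q was 2.82 in replicate 1 and 2.94 in replicate 2, somewhat above the 2.51 and 2.61 of all regions without a partner. Their median tag density was 2.88 in replicate 1 and 2.83 in replicate 2, against 3.13 and 2.71 over all regions of each list. The highest -log10 q among the calls inside the domains was 8.67 in replicate 1 and 16.9 in replicate 2. The calls lay mostly on the H3K27me3 regions themselves, which covered 46.7% of the spans. Of the H3K27ac summits inside the domains, 76 of 94 in replicate 1 (80.9%, exact 95% interval 71.4 to 88.2%) and 178 of 206 in replicate 2 (86.4%, 81.0 to 90.8%) stood on an H3K27me3 region and not in a gap. In both replicates this share was above the covered share of the span. Replicate 2 had 206 summits but 188 regions in these domains, so the summits are not all independent. No shifted placement of summits was compared.

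Shared H3K27ac was closer to the domains than to shifted spans. The distance from a domain's end to the nearest shared H3K27ac, known for 597 domains, had a median of 16.9 kb (exact 95% interval 14.3 to 19.3 kb, quartiles 5.65 and 46.7 kb). This interval treats domains as independent, although neighbours can share the same nearest H3K27ac. Shifted spans that came out free had a median of 26.8 kb (22.9 to 31.4 kb), or 20.9 kb (18.3 to 23.9 kb) with shifts of 50 to 500 kb. In replicate 1 alone, domains free of that replicate lay 8.43 kb from its nearest region, against 12.9 kb after shifts (11.2 to 14.9 kb). In replicate 2 alone it was 6.43 kb against 9.07 kb (7.85 to 10.4 kb). With shifts of 50 to 500 kb these shifted medians were 10.8 kb (9.46 to 12.1 kb) and 7.76 kb (6.81 to 8.81 kb), so the observed distance in replicate 2 was only just below the range. Of the 597, 20 lay within 1 kb of shared H3K27ac, 139 within 5 kb, 328 within 20 kb and 550 within 100 kb.

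**Figure D3:**
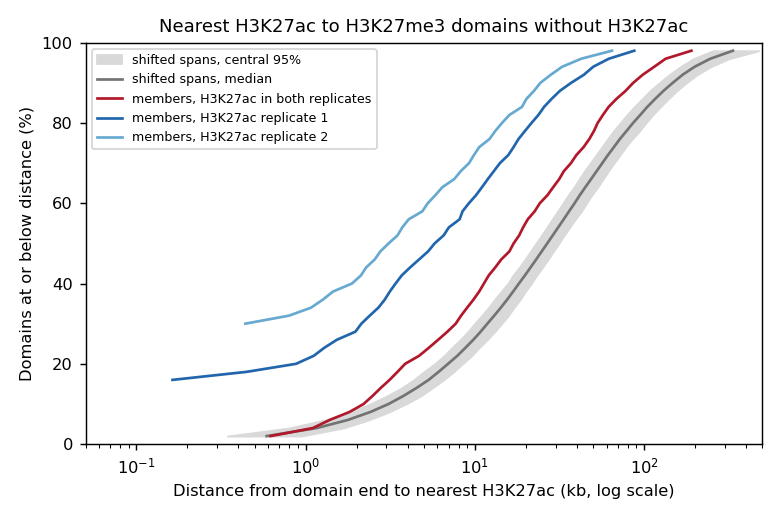
Percent of domains (vertical axis) whose nearest H3K27ac lies at or below a distance in kb (horizontal log axis), for the 600 domains and for shifted spans without shared H3K27ac. The curve of shared H3K27ac lies left of the shifted band over most of its length, with medians of 16.9 and 26.8 kb, and the curves of single replicates start above 0% because some domains hold a call of that replicate.

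Distance did not rise or fall steadily with the amount of H3K27me3 among the 600 domains. The Spearman rho of the distance was -0.03 with tag density, 0.04 with base pairs and 0.01 with the number of regions, across 597 domains that share the same libraries. By density class, from sparsest to densest, the median distance was 21.3, 11.7, 13.6, 19.9 and 19.1 kb. For domains free of replicate 1 alone it was 15.3 kb in the sparsest class and 5.8 to 8.87 kb in the others. For replicate 2 alone it was 8.7 kb against 4.45 to 7.91 kb. Shifted distances were not set beside these by class. The stretch without shared H3K27ac that contained a domain had a median of 99.1 kb and reached 952 kb. The nearer H3K27ac was on the left in 299 domains and on the right in 294. The nearest shared interval had a median H3K27ac density of 3.57 in replicate 1 and 3.67 in replicate 2, against 4.14 and 4.18 over all 27647 shared intervals, and it exceeded those medians at 239 and 243 of the 597 domains. Nearest intervals were thus somewhat weaker than shared intervals as a whole in both replicates. The same value was not computed for shifted spans, so whether this is particular to the domains was not tested.

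At the near end, a small domain on chromosome 10 from 518465 to 519533 (601 bp, density 3.46) had shared H3K27ac 78 bp from its edge. The domain on chromosome 9 from 20368801 to 20373283 (1785 bp, density 57.0) had it at 104 bp, and there H3K27ac was dense, 8.91 and 8.85 in replicates 1 and 2. The domain on chromosome 23 from 26488014 to 26488891 was 165 bp from H3K27ac of density 8.36 and 8.52. Those on chromosome 16 from 39126030 to 39130044 (density 118) and on chromosome 14 from 40387641 to 40390111 (density 32.4) were 248 and 303 bp away. Of these near domains only that on chromosome 14 held no call of either replicate. The chromosome 10 and 16 domains held 199 and 214 bp of replicate 2. Those on chromosomes 9 and 23 held 31 and 210 bp of replicate 1, and 215 and 50 bp of replicate 2. Just outside the definition, the domain on chromosome 9 from 34637586 to 34646490 had 9 bp of shared H3K27ac, one on chromosome 9 from 17423869 to 17425448 had 33 bp, and one on chromosome 22 from 18252861 to 18257673 had 44 bp. Such slight overlaps were few: 10 of the 186 domains with H3K27ac held under 100 bp of it, and the median was 296 bp.

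Of the 5 most isolated domains, 4 had 3 regions and 3 had a density under 10. Among all 600 domains, 364 had 3 regions and 80 (13.3%) had a density under 10. These 5 are too few to compare with those shares. The farthest, on chromosome 8 from 21587711 to 21589375 (density 8.43), lay 307014 bp from shared H3K27ac, in a stretch of 952 kb without any. On chromosome 4 the domain from 77558427 to 77561461 (density 44.1) lay 290643 bp away, but held 200 bp called in replicate 2. The domain on chromosome 25 from 26047935 to 26049800 (density 4.43) was 281171 bp away, that on chromosome 19 from 23631544 to 23634255 (density 5.40) was 273480 bp away, and that on chromosome 14 from 2191965 to 2199545 (density 61.6) was 265057 bp away. Single calls lay at varied distances, at 41636 and 29842 bp in replicates 1 and 2 for the chromosome 8 domain and at 244322 and 38617 bp for the chromosome 19 domain. The 3 domains for which no distance is known lay on unplaced scaffolds without shared H3K27ac.

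Around the domains, H3K27ac was slightly above its genome average. Within 10 kb outside the ends, it covered 15.5 bp per kb in replicate 1 and 22.8 in replicate 2, or 1.13 ± 0.0122 times the average of each list (SD, n = 2). Within 100 kb it covered 1.11 ± 0.00575 times the average (SD, n = 2). Around the 186 domains that held H3K27ac, these values were 1.55 ± 0.0488 and 1.51 ± 0.0294 (SD, n = 2). Single H3K27me3 regions without shared H3K27ac stood between, at 1.28 ± 0.005 within 10 kb and 1.18 ± 0.00259 within 100 kb (SD, n = 2). Each SD covers 2 H3K27ac lists over the same domains and does not measure variation between domains. The order of these 3 classes was the same in both replicates, and no test was made. An exception to this order lay from 2.5 to 5 kb, where domains holding H3K27ac had only 1.14 and 1.11 times the average in replicates 1 and 2. The 600 domains had 1.35 and 1.25 times there. Single regions without shared H3K27ac had 1.35 and 1.28 times, so the value in this bin was not particular to the 600 domains. The flanks adjoin spans chosen for lacking H3K27ac, and the part of that choice in the flanks was not tested.

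**Figure D4:**
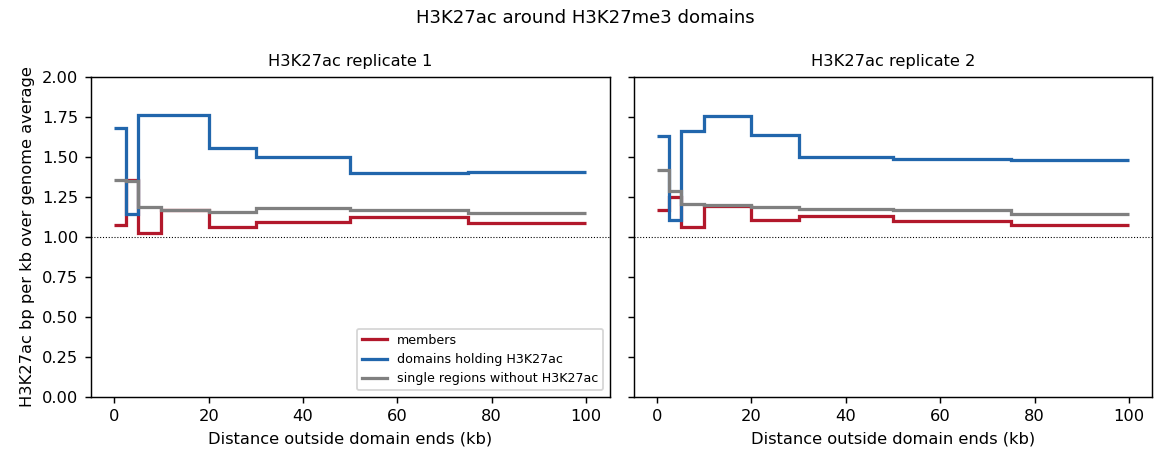
H3K27ac base pairs per kb relative to the average of each list (vertical axis, 1 = average) by distance outside domain ends in kb (horizontal axis), for the 600 domains, the 186 domains holding H3K27ac and 8705 single regions without shared H3K27ac. The 600 domains stay near 1.1 beyond 5 kb in both replicates, below the domains holding H3K27ac. From 2.5 to 5 kb both the 600 domains and the single regions lie above the domains holding H3K27ac.

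The domains were spread over all chromosomes, partly in runs. Neighbours on a chromosome were separated by a median of 1.31 Mb (exact 95% interval 1002 to 1546 kb, quartiles 0.145 and 3.03 Mb, 570 gaps). Of the gaps, 122 (21.4%) were at most 100 kb and 37 at most 10 kb, and the smallest was 3011 bp, just over the gap that joins regions. In all 786 domains of 3 or more regions, 26.4% of gaps were at most 100 kb. Joined at up to 100 kb, 195 of the 600 domains (32.5%) lay in 73 runs of 2 to 8, and 41 of these runs had no shared H3K27ac from end to end. Of the 73 runs 46 were pairs. Of the 27 runs of 3 or more domains, 10 had no shared H3K27ac from end to end. The domains in a run lack shared H3K27ac by definition, and the stretch without it around a domain had a median of 99.1 kb. Runs joined at up to 100 kb can therefore often lack it. No count for shifted spans or for runs of all 786 domains was set beside these, so whether it is particular to the 600 was not tested.

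The run with most domains lay on chromosome 15 from 27210858 to 27388005, with 8 domains and 31 regions in 177 kb. The densest of the domains free of shared H3K27ac, at 315, was its sixth, and the first domain reached only 32.0. The run held 2 shared H3K27ac intervals, from 27216712 to 27216912 and from 27228448 to 27228636, both at its left end and weak, with densities of 2.33 and 2.27 at the first and 1.51 and 1.85 at the second in replicates 1 and 2. From there to its right end no shared H3K27ac was found, although single calls lay between the domains. On chromosome 14 a run of 6 domains from 2191965 to 2401347 held no shared H3K27ac and no call of replicate 1 over 209 kb, with densities of 57.5 to 66.3, and 2 calls of replicate 2. On chromosome 10 a run of 5 from 21683885 to 21795138 had no shared H3K27ac and 1 call of replicate 1. On chromosome 16, by contrast, a run of 6 from 1335166 to 1566284 was interrupted by 6 shared H3K27ac intervals.

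**Figure D5:**
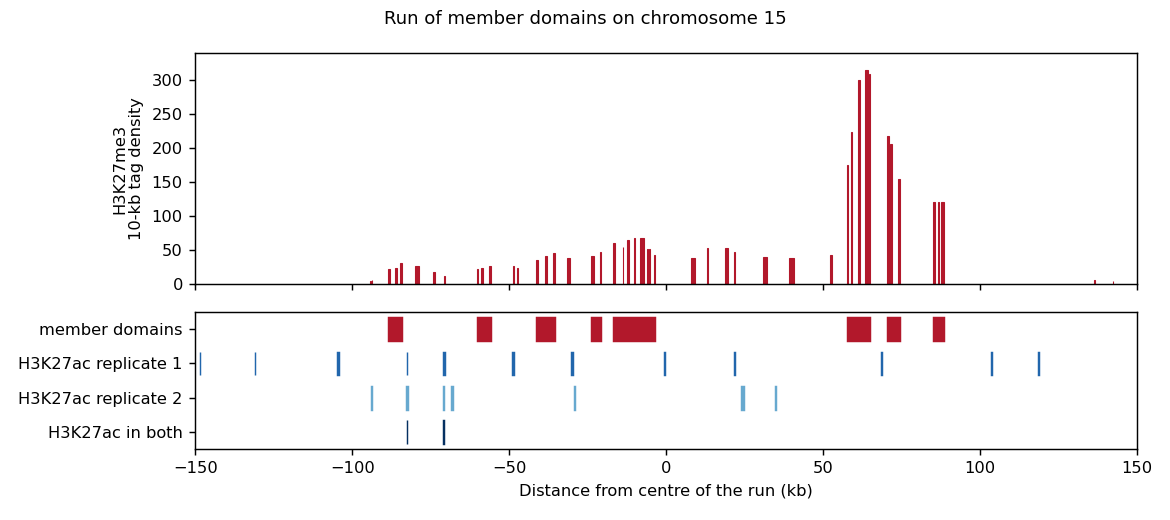
The run of 8 domains on chromosome 15 by distance from its centre in kb (horizontal axis): H3K27me3 10-kb tag density of each region (upper panel, vertical axis) and the positions of the domains, of H3K27ac regions in each replicate and of H3K27ac in both (lower panel). H3K27me3 rises to 315 toward the right end, and the 2 shared H3K27ac intervals lie at the left end.

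Chromosomes differed in number and share of free domains. Per Mb there were most on chromosome 13 (0.652, 34 domains) and fewest on chromosome 4 (0.167, 13 domains). Domains of 3 or more regions, free or not, numbered 46 on chromosome 13 and 16 on the longer chromosome 4. Of these, 73.9% and 81.25% were free, near the 76.3% of all 786. The ranking per Mb is therefore not particular to the free domains. The long arm of chromosome 4 is rich in repeats, and the part of this was not tested. The share of domains of 3 or more regions that were free was highest on chromosome 15, 30 of 32 (93.8%), and lowest on chromosome 2, 19 of 36 (52.8%), and chromosome 11, 12 of 21 (57.1%). These counts are small, and no test between chromosomes was made.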

How the data were processed

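Per the submitters' processing notes, MACS2 2.2.7.1, bedtools 2.30.0, Picard 3.0.0, SAMtools 1.16.1, Bowtie2 2.4.5 and cutadapt 4.1 were used with danRer11, no role or order being stated. Their settings, and whether a control library was used, are not stated in the sources read here. Peaks stand in 1 list per library. The deposited lists give for each summit a fold (ratio of pileup to local background), -log10 of a p-value and of a q-value, and a whole-number score derived from -log10 q.

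Touching lines were merged and the mitochondrial genome was dropped. Pileup and background were solved from the deposited fold and p with MACS2's formulas, and every line had a solution within 0.001 (355 H3K27me3 lines had several, and the closest was kept). A background unit of 0.02 was read as 1 tag of 200 bp in a 10-kb window, a reading from the values. Circular shifts moved the spans within each chromosome, taken to end where the last called region of the 3 lists ends. Their medians and central 95% ranges are descriptions, and no test across samples was run. Exact intervals for shares are Clopper-Pearson and reflect counting alone, as neighbouring regions, and reads lacking molecular identifiers, are not independent. Exact intervals for medians come from ranked values and carry the same limit. The code was tested on simulated data. Replicate numbers come from the titles.

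The domains and lists were chosen with earlier results of these data known. Named are the 10 domains with most base pairs, the 5 with most regions, the 5 densest, the 5 nearest to and farthest from shared H3K27ac, the longest run and those just outside the rule; the sparsest domain and the other runs were chosen after their values were seen, as were the 5 classes by density. Calculations used scipy 1.17.1, pandas 2.3.3, numpy 2.4.6 and matplotlib 3.10.9 under Python 3.11.15.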

Additional observations from a re-analysis of the deposited data

Results flagged for a closer look

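The mitochondrial genome, which carries no histones and was left out of every comparison, held 4 regions called in H3K27me3, with a tag density of up to 212. There were also 4 regions in each H3K27ac list, with densities of up to 70.3 and 23.1 in replicates 1 and 2.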

How the results depend on the processing

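The count of free domains stayed below the central range of shifts in all 14 alternatives, with ratios from 0.624 (H3K27ac of either replicate) to 0.973 (-log10 q of at least 5 in H3K27ac), and so did the sparsest density class. Ratios for different H3K27ac sets are not on 1 scale, because the shifted share that is free differs. It was 75.2% for either replicate and 91.1% for shared H3K27ac. The densest class, within the range at 0.985, fell below it with gaps of 10 kb (0.860), with 2 or more regions (0.935), with H3K27ac of either replicate (0.719), without single replicates (0.821 to 0.854) and by summits of either replicate (0.725); the cause was not tested. The number of domains, 600, was 368 with gaps of 1 kb, 2248 with 2 or more regions, 117 with 5 or more, 237 with a -log10 q of at least 5 in H3K27me3, 369 with H3K27ac of either replicate, 380 by summits, and 432 to 506 without single H3K27ac replicates. The median distance of 16.9 kb became 4.35 kb with H3K27ac of either replicate, 6.43 to 8.43 kb without single replicates, 19.4 kb with the q filter on H3K27me3 and 50.5 kb with that on H3K27ac. The median spacing of 1313 kb became 2267 kb with gaps of 1 kb, 268 kb with 2 or more regions, 4873 kb with 5 or more, 1857 kb with H3K27ac of either replicate, 1483 to 1702 kb without single replicates, 3141 kb with the q filter on H3K27me3 and 902 kb with that on H3K27ac. Fewer or more domains enter under these settings by construction. The H3K27me3 library was the shallowest by its solved background and had no replicate. The part of its depth in which domains reach 3 regions was not tested.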
